A study of Danio rerio with 4 samples.

Results

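The genes described here encode the core of the Bmp and Tgf-beta pathways, from the secreted ligands and their antagonists to the receptors and the Smad proteins that carry the signal into the nucleus. They were chosen by gene name in the deposited table. Names began with acvr, or with the stems bmp, gdf, tgfb, bmpr, tgfbr, smad, nog or grem followed directly by a digit. The genes chrd, bmper and szl were included, and the inhibitory Smad genes smad6a, smad6b and smad7 were left out. This gave 68 of 26267 genes. They comprised 23 Bmp and Gdf ligands, 5 Tgf-beta ligands, 10 antagonists, 10 type I receptors, 8 type II receptors, 1 co-receptor and 8 Smads. The other 3 matched by name and encode no ligand, antagonist, receptor or Smad: bmp1a and bmp1b encode metalloproteases that cut procollagen and chordin, and bmp2k encodes a protein kinase.

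Bulk RNA sequencing was carried out on zebrafish (Danio rerio) neural crest cells collected by sorting for sox10:DsRed, a red fluorescent reporter under sox10 regulatory sequence that all 4 samples carried, at 20 hours post fertilization. Cells of 2 mutant samples were compared with those of 2 wild-type samples, and the study asks how Nr2f nuclear receptors act in cranial ectomesenchyme, the crest-derived tissue that forms the facial skeleton. The titles of the mutant samples name nr2f2 and nr2f5, whereas the genotype label has nr2f5 as mutant and nr2f2 as unknown, so the nr2f2 genotype of the embryos is not given. Each sample was a pool, of 88 or 35 mutant and 110 or 120 wild-type embryos, and reporter-positive cells need not all be ectomesenchyme. Abundance is in TPM (transcript abundance scaled for transcript length and to an equal total in each library), which keeps no read depth; the depth is therefore unknown, and a value of 0 is described only as listed at 0.

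The targeted gene nr2f5 fell to 46.5 and 47.1 TPM in the mutant samples from 579 and 559 TPM in the wild type (limma, adjusted p = 1.07e-06). The gene nr2f2 stood at 67.2 and 51.7 TPM in the mutant samples and 73.5 and 59.3 TPM in the wild type. It did not pass (limma, adjusted p = 0.67). All 10 neural crest markers were above 0 in every sample, and their summed abundance was 2385 and 2283 TPM in the mutant samples and 2698 and 2741 TPM in the wild type. The highest of them, twist1a and dlx2a, are also genes of ectomesenchyme. Of the 9 tested, 2 rose (foxd3 and crestin) and 3 fell (twist1a, dlx2a and snai2), against 1.13% and 2.95% of all tested genes. Marker lists of cell types, here and below, were chosen with earlier results of these data known. Nothing is read from such counts against all genes. For twist1a the values were 498 and 469 TPM in the mutant samples and 847 and 1004.5 TPM in the wild type. For crestin they were 305 and 314 TPM in the mutant samples and 187 and 145 TPM in the wild type. The sums therefore do not show an equal mix of crest cells. Wild-type replicate 2 stood apart in epidermal transcripts: the 10 epidermis and periderm markers summed to 3870 TPM there and to between 459 and 634 TPM in the other samples.

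Bmp and Tgf-beta ligands bring type II and type I serine/threonine kinase receptors together at the cell surface. The type I receptor then phosphorylates receptor-regulated Smads, which differ between the Bmp branch (smad1, smad5 and smad9) and the Activin and Tgf-beta branch (smad2, smad3a and smad3b), and which enter the nucleus with a co-Smad (smad4a or smad4b). Antagonists such as Noggin, Gremlin and Chordin bind ligands outside the cell. In the zebrafish pharyngeal arches, Bmp signalling is known to promote ventral skeletal fates, with Gremlin limiting it.

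Across the pathway, 0 of the 45 members that could be tested passed the test between mutant and wild-type cells, where 4.08% of all 14217 tested genes did (limma on log2(TPM + 1), adjusted p under 0.05). The smallest adjusted p among them was 0.0508, for bmp5. Before adjustment, 15 of the 45 had a p under 0.05, 13 of them lower (28.9%) and 2 higher (4.44%) in mutant cells, against 14.3% and 6.05% of all tested genes. Limma without trend and robust gave 0 calls among all tested genes, so its 0 calls among members say nothing about the members. There, 13 of the 45 members had an unadjusted p under 0.05, as did 2531 of the 14217 tested genes. Both mutant values lay beneath both wild-type values for 23 members (51.1%) and above them for 5 (11.1%), against 34.9% and 18.2% of all tested genes.

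The median log2 fold change of the 45 members was -0.39, and that of all tested genes was -0.16. Relative to all genes the members' median was therefore -0.23; it was -0.08 with quantile normalization, -0.07 with a pseudocount of 5 TPM, -0.14 without wild-type replicate 1 and -0.40 without wild-type replicate 2. Fold changes were below 0 for 35 members, where 63.3% of all tested genes were. They were below 0 for 32 members with median-ratio scaling and 25 with quantile normalization. The 63.3% does not apply to these scalings, under which the median of all tested genes was 0.001 and 0.03. Relative to all genes the members' median was -0.26 with median-ratio scaling. In bulk samples, fewer cells of a type and less RNA per cell cannot be told apart. The remaining 23 members had a mean under 1 TPM and were not tested; none exceeded 1.67 TPM in any sample, and 2, bmp10l and grem2a, were listed at 0 in all 4.

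**Figure D1:**
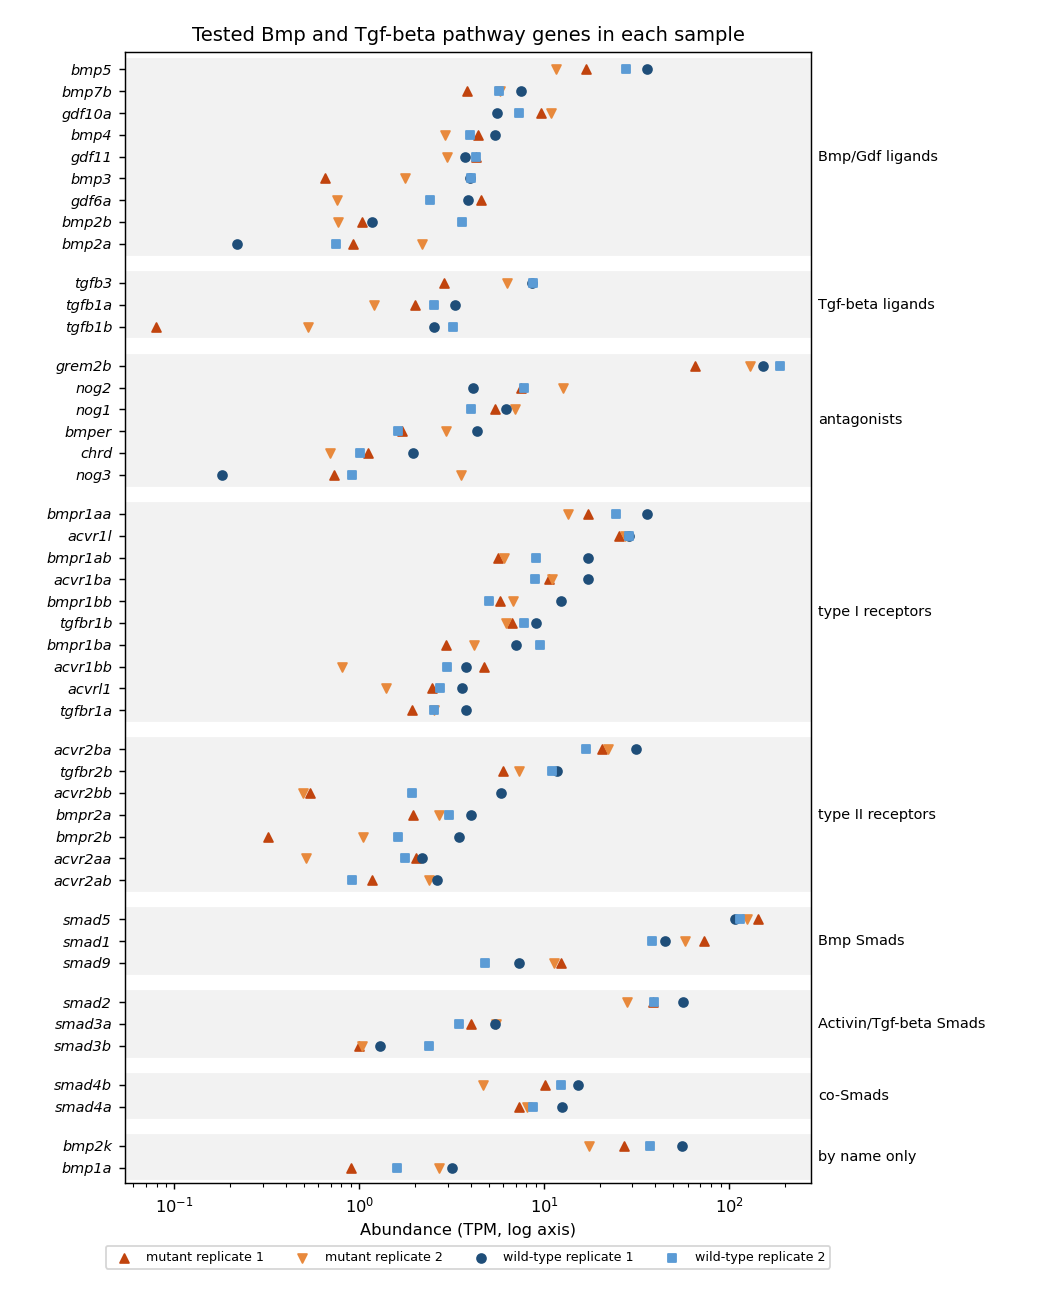
Abundance (TPM, log axis) of the 45 tested genes in each of the 4 samples, grouped by role; triangles are mutant samples, and circles and squares are wild-type samples. The antagonist gene grem2b and the Bmp Smad gene smad5 lie farthest to the right, and the triangles of bmp5, tgfb1b and bmpr1aa lie left of the wild-type points.

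In wild-type cells the antagonist gene grem2b was the most abundant member, at 153 and 189 TPM. It was followed by smad5 at 108 and 115 TPM, and the samples of these genes did not overlap. Next came smad2, bmp2k and smad1, with means of 47.6, 46.4 and 41.5 TPM and overlapping samples. The ligand gene bmp5 and the receptor genes bmpr1aa, acvr1l and acvr2ba followed with means of 31.9, 30.1, 28.8 and 24.1 TPM, also overlapping. In all, 14 members had a wild-type mean of 10 TPM or more, and bmp5 was the only ligand among them. Receptor values differed between the wild-type replicates: 16 of 17 tested receptor genes were higher in wild-type replicate 1 than in replicate 2, where 71.1% of all tested members and 63.3% of all tested genes were, and the summed abundance of type I receptors was 1.36 times as high.

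Among the Bmp and Gdf ligands, bmp5 was the most abundant. The gene, whose product belongs to the Bmp5, Bmp6 and Bmp7 group of ligands, had mutant values of 16.8 and 11.7 TPM in replicates 1 and 2 and wild-type values of 36.1 and 27.7 TPM in the same order, which all later pairs of values follow. The groups did not overlap, the mutant samples being the lower. The log2 fold change was -1.12 ± 0.27 (log2FC, SE, 2 samples per group), with a 95% confidence interval of -1.73 to -0.52 and an adjusted p of 0.0508. It crossed the threshold under 5 of 13 other settings, with an adjusted p of 0.0386 to 0.304 over all of them.

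For bmp3, a divergent ligand known in mammals to oppose Bmp signalling, the values were 0.649 and 1.78 TPM in the mutant samples and 3.98 and 4.01 TPM in the wild type. The mutant samples again lay below the wild-type samples, with a log2 fold change of -1.22 ± 0.41 (adjusted p = 0.134). The table holds bmp3 under 2 gene IDs, and the difference lay in ENSDARG00000060526, at 0.416 and 0.509 TPM in the mutant samples and 3.72 and 3.56 TPM in the wild type. The other ID, ENSDARG00000109238, stood at 0.233 and 1.27 TPM in the mutant samples and 0.255 and 0.454 TPM in the wild type. Tested per gene ID, the former passed (log2FC -1.67, adjusted p = 0.0464). How reads were shared between the IDs is not known.

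The gene gdf10a, a relative of bmp3, went the other way. Its values were 9.59 and 10.9 TPM in the mutant samples and 5.57 and 7.34 TPM in the wild type, without overlap, and it did not pass (log2FC 0.60 ± 0.31, adjusted p = 0.309). Within each sample, bmp5 made up 32.9% and 27.3% of the summed Bmp and Gdf ligand abundance in mutant and 48.7% and 42.1% in wild-type cells. The share of gdf10a was 18.8% and 25.5% in mutant and 7.51% and 11.2% in wild-type cells. These shares do not depend on how the libraries were scaled to each other. As parts of a sum, such shares, here and below, do not show which gene differed.

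The gene bmp4, whose ligand is known to act in the ventral arches, was less abundant than bmp5, at 4.38 and 2.91 TPM in the mutant samples and 5.44 and 3.98 TPM in the wild type. The groups overlapped, and the confidence interval of its log2 fold change ran from -1.13 to 0.52. For bmp7b the values were 3.83 and 5.80 TPM in the mutant samples and 7.47 and 5.68 TPM in the wild type, also overlapping. Of the other tested ligand genes, gdf11, gdf6a and bmp2b had log2 fold changes of -0.12, -0.39 and -0.73. That of gdf11 was above 0 with median-ratio scaling and quantile normalization. The mutant samples of gdf6a, at 4.54 and 0.757 TPM, enclosed the wild-type samples, at 3.86 and 2.42 TPM. Without mutant replicate 2 the log2 fold change of gdf6a was 0.44. For 1 of the 2 gene IDs of bmp2b, ENSDARG00000115191, the wild-type values were 0 and 2.04 TPM and the mutant values 0.471 and 0.0852 TPM. For bmp2a the log2 fold change was 0.76 on the same scale, from 0.218 and 0.752 TPM in wild-type to 0.92 and 2.20 TPM in mutant cells. Of the 14 Bmp and Gdf ligands that were not tested, bmp6 was listed at 0.136 and 0.22 TPM in the mutant samples and 1.54 and 1.16 TPM in the wild type. In bmp7a the mutant samples were the higher, at 0.825 and 0.813 TPM against 0.637 and 0.69 TPM in the wild type.

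All 3 tested Tgf-beta ligand genes were lower in both mutant samples than in both wild-type samples, where 34.9% of all tested genes were. None of the 3 passed, and their fold changes stayed below 0 under every scaling tried. The most abundant was tgfb3, at 2.88 and 6.29 TPM in the mutant samples and 8.57 and 8.66 TPM in the wild type (log2FC -0.85 ± 0.38, adjusted p = 0.239). Its mutant samples differed, and the log2 fold change was -0.40 when mutant replicate 1 was left out and -1.31 when replicate 2 was. For tgfb1b the values were 0.0795 and 0.531 TPM in the mutant samples and 2.53 and 3.22 TPM in the wild type (log2FC -1.59 ± 0.44, adjusted p = 0.0805). At such low levels the fold change depended on the pseudocount, and it was -3.14 with 0.1 TPM and -0.57 with 5 TPM in place of 1 TPM. Its paralog tgfb1a stood at 2.00 and 1.20 TPM in the mutant samples and 3.28 and 2.54 TPM in the wild type. Over all 5 genes the summed abundance was 5.03 and 8.09 TPM in the mutant samples and 14.9 and 14.7 TPM in the wild type. The genes tgfb2 and tgfb5 did not exceed 0.286 TPM in any sample, and tgfb2 was listed at 0 in both mutant samples.

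Myeloid cells are a known source of Tgf-beta ligands, and their markers were also lower in the mutant samples. The 8 myeloid markers summed to 22.9 and 32.0 TPM in the mutant samples and 170 and 261 TPM in the wild type. Of the 7 tested, 5 fell and 0 rose, against 2.95% and 1.13% of all tested genes, with a median log2 fold change of -2.67. Nothing is read from that difference, as the list was chosen with earlier results of these data known. Highest among them were coro1a, at 4.76 and 11.3 TPM in the mutant samples and 47.2 and 99.9 TPM in the wild type, and spi1b. The neutrophil gene lyz was at 0 in both mutant libraries, and mpx in mutant replicate 2 and wild-type replicate 1. The part of these cells in the ligand values was not tested.

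Antagonist genes did not share a direction, with 3 of the 6 tested above 0 and 3 below; of the latter, bmper and chrd were above 0 with quantile normalization. The gene grem2b, whose Gremlin product limits Bmp signalling in the zebrafish arches, stood at 65.1 and 129 TPM in the mutant samples and 153 and 189 TPM in the wild type. Its mutant samples lay below the wild-type samples but differed from each other by more than the wild-type samples did. The log2 fold change was -0.88 ± 0.34 with an adjusted p of 0.231. Without mutant replicate 2 it was -1.37 (adjusted p = 0.0307), and without mutant replicate 1 it was -0.39 (adjusted p = 0.33). In every sample grem2b made up most of the summed antagonist abundance, at 79.5% and 82.4% in mutant and 89.8% and 92.4% in wild-type cells.

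The Noggin genes were far less abundant. For nog2 the values were 7.50 and 12.7 TPM in the mutant samples and 4.12 and 7.79 TPM in the wild type, with overlap (log2FC 0.68 ± 0.38, adjusted p = 0.344). For nog1 they were 5.40 and 6.94 TPM in the mutant samples and 6.20 and 4.04 TPM in the wild type. The third Noggin gene, nog3, had a log2 fold change of 0.90, from low values: 0.733 and 3.56 TPM in the mutant samples and 0.181 and 0.907 TPM in the wild type. Confidence intervals of all 3 included 0. For bmper, which encodes a Bmp-binding protein of endothelium, the values were 1.71 and 2.93 TPM in the mutant samples and 4.36 and 1.62 TPM in the wild type, and the log2 fold change of chrd, the Chordin gene, was -0.36. The Sizzled gene szl did not exceed 0.0318 TPM in any sample.

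**Figure D2:**
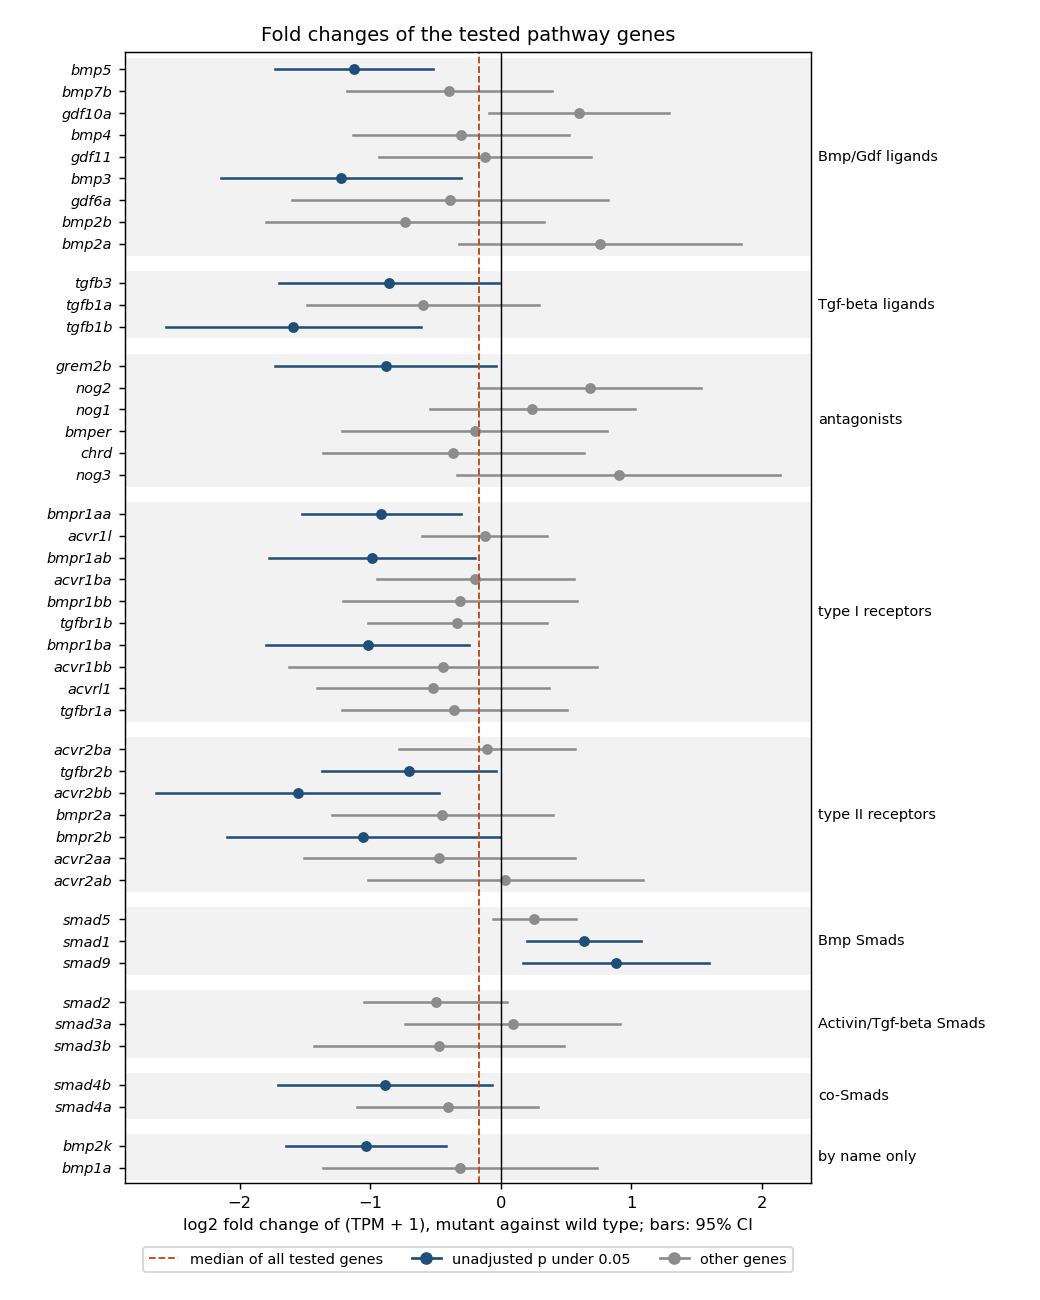
Log2 fold changes of TPM + 1 in mutant against wild-type cells for the 45 tested genes, with 95% confidence intervals from limma; blue marks an unadjusted p under 0.05, and the dashed line is the median of all tested genes at -0.16. Points of the 10 type I receptors lie below 0 on this scale (acvr1l, acvr1ba, bmpr1bb and tgfbr1a were above 0 with quantile normalization, and acvr1l also with median-ratio scaling) and those of the 3 Bmp Smads above it, and none passed after adjustment.

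Type I receptor genes all had fold changes below 0, from -1.02 for bmpr1ba to -0.12 for acvr1l, with a median of -0.40. Relative to the median of all tested genes, -0.16, acvr1l and acvr1ba were at 0.04 and -0.03. With quantile normalization acvr1l, acvr1ba, bmpr1bb and tgfbr1a were above 0, and with median-ratio scaling acvr1l was. Without wild-type replicate 1 the log2 fold changes of acvr1ba and bmpr1bb were 0.24 and 0.26. Without mutant replicate 2 that of acvr1bb was 0.39. The Bmp receptor gene bmpr1aa stood at 17.3 and 13.4 TPM in the mutant samples and 35.8 and 24.4 TPM in the wild type (log2FC -0.91 ± 0.27, adjusted p = 0.0992). Its paralog bmpr1ab stood at 5.61 and 6.05 TPM in the mutant samples and 17.2 and 9.02 TPM in the wild type (log2FC -0.99 ± 0.35, adjusted p = 0.154; -0.55 without wild-type replicate 1). For bmpr1ba the values were 2.95 and 4.16 TPM in the mutant samples and 7.03 and 9.44 TPM in the wild type (log2FC -1.02 ± 0.35, adjusted p = 0.137). In each of these 3 genes both mutant values lay beneath both wild-type values, as in 34.9% of all tested genes, and none passed. The fourth gene of the group, bmpr1bb, overlapped between groups, at 5.77 and 6.75 TPM in the mutant samples and 12.3 and 5.06 TPM in the wild type.

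The gene acvr1l, which encodes the Bmp type I receptor known in zebrafish as Alk8, stood at 25.3 and 27.4 TPM in the mutant samples and 28.8 and 28.7 TPM in the wild type. Its mutant values lay just under the wild-type values, and its log2 fold change had a confidence interval of -0.60 to 0.36. The Activin and Nodal receptor gene acvr1ba overlapped between groups, at 10.6 and 10.99 TPM in the mutant samples and 17.2 and 8.93 TPM in the wild type. Within each sample the 4 bmpr1 genes made up 38.0% and 38.1% of the summed type I receptor abundance in mutant and 52.2% and 47.2% in wild-type cells. The Tgf-beta receptor genes tgfbr1b and tgfbr1a and the endothelial receptor gene acvrl1 had log2 fold changes of -0.33, -0.35 and -0.52. Endothelial markers were lower in the same samples: the 11 genes summed to 37.4 and 25.9 TPM in the mutant samples and 102 and 57.7 TPM in the wild type. Of the 10 tested, 2 fell and 0 rose, against 2.95% and 1.13% of all tested genes, with a median log2 fold change of -1.04. Highest among them were etv2 and tal1, 1 of the 11 was listed at 0 in mutant replicate 2, and their part in the receptor values was not tested.

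Of the 7 tested type II receptor genes, 6 had fold changes below 0, and acvr2ba among them was above 0 with median-ratio scaling and quantile normalization. Without wild-type replicate 1 the log2 fold change of acvr2ba was 0.33, and without mutant replicate 2 that of acvr2aa was 0.03. The most abundant, acvr2ba, an Activin receptor gene, stood at 20.6 and 22.1 TPM in the mutant samples and 31.4 and 16.8 TPM in the wild type, where the wild-type samples enclosed the mutant samples. Its paralog acvr2bb was listed at 0.542 and 0.496 TPM in the mutant samples and 5.82 and 1.92 TPM in the wild type (log2FC -1.56 ± 0.49, adjusted p = 0.113). The groups did not overlap, but the wild-type samples differed widely; without wild-type replicate 2 the log2 fold change was -2.17 (adjusted p = 0.0334), and without wild-type replicate 1 acvr2bb was not tested, since its mean fell under 1 TPM.

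The Tgf-beta type II receptor gene tgfbr2b stood at 6.01 and 7.30 TPM in the mutant samples and 11.7 and 11.1 TPM in the wild type, without overlap (log2FC -0.70 ± 0.30, adjusted p = 0.222). For bmpr2a the values were 1.95 and 2.69 TPM in the mutant samples and 4.01 and 3.04 TPM in the wild type, and the log2 fold change of bmpr2b was -1.05. Neither Bmp type II receptor gene passed. The share of acvr2ba in the summed type II receptor abundance was 62.9% and 60.5% in mutant and 51.3% and 44.7% in wild-type cells. The second Tgf-beta type II gene, tgfbr2a, and the co-receptor gene tgfbr3 (betaglycan) did not exceed 0.386 TPM in any sample.

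The Bmp Smad genes were the only role with all tested members above 0, and they stayed above 0 under every setting tried. Both mutant samples lay above both wild-type samples for all 3, as for 18.2% of all tested genes, and none of the 3 passed. The most abundant, smad5, stood at 143 and 125 TPM in the mutant samples and 108 and 115 TPM in the wild type (log2FC 0.26 ± 0.14, adjusted p = 0.333). For smad1 the values were 73.5 and 57.5 TPM in the mutant samples and 44.9 and 38.1 TPM in the wild type (log2FC 0.64 ± 0.20, adjusted p = 0.109). With median-ratio scaling smad1 passed, at a log2 fold change of 0.82 (adjusted p = 0.0239). The third gene, smad9, stood at 12.4 and 11.2 TPM in the mutant samples and 7.30 and 4.78 TPM in the wild type (log2FC 0.89 ± 0.32, adjusted p = 0.156).

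Smads of the Activin and Tgf-beta branch and the co-Smads did not lie above the wild-type samples. For smad2 the values were 38.7 and 27.9 TPM in the mutant samples and 56.1 and 39.0 TPM in the wild type, the higher mutant value just under the lower wild-type value, with a log2 fold change of -0.50 ± 0.25 (adjusted p = 0.287), which was -0.24 without wild-type replicate 1 and -0.27 without mutant replicate 2. The gene smad3a overlapped, at 4.01 and 5.52 TPM in the mutant samples and 5.43 and 3.46 TPM in the wild type, and smad3b had a log2 fold change of -0.47, from wild-type values of 1.30 and 2.39 TPM to mutant values of 0.995 and 1.03 TPM. The co-Smad gene smad4b stood at 10.1 and 4.64 TPM in the mutant samples and 15.2 and 12.3 TPM in the wild type (log2FC -0.89 ± 0.37, adjusted p = 0.208), and its log2 fold change was -0.40 when mutant replicate 2 was left out and -1.38 when replicate 1 was. Its paralog smad4a, at 7.28 and 8.03 TPM in the mutant samples and 12.5 and 8.75 TPM in the wild type, had a log2 fold change of -0.41.

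Within each sample, the 3 Bmp Smads made up 84.0% and 84.9% of the summed abundance of receptor-regulated Smads in mutant and 71.9% and 77.9% in wild-type cells. The ratio of smad1 to smad2 was 1.90 and 2.06 in mutant and 0.801 and 0.977 in wild-type cells. As ratios within a library, these do not show which gene or branch differed, and they were not tested. Within the Activin and Tgf-beta branch smad2 was the most abundant, and smad3a had a log2 fold change of 0.09.

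**Figure D3:**
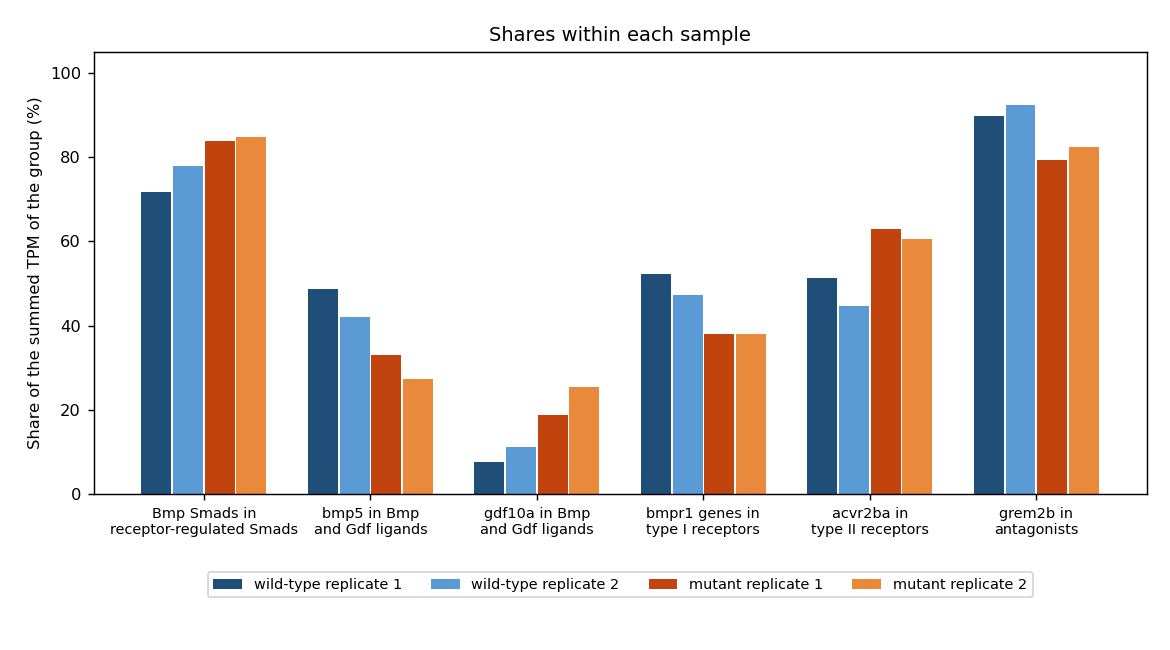
Shares of summed TPM within each sample (percent, axis from 0) for 6 quantities: Bmp Smads in receptor-regulated Smads, bmp5 and gdf10a in Bmp and Gdf ligands, the 4 bmpr1 genes in type I receptors, acvr2ba in type II receptors, and grem2b in antagonists. Each bar is 1 sample; the mutant bars of bmp5 (32.9% and 27.3%) lie below its wild-type bars (48.7% and 42.1%), and the mutant bars of Bmp Smads (84.0% and 84.9%) lie above theirs.

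Transcript values showed where these levels lay. For smad1, the transcript ENSDART00000033566 carried 93.1% to 98.3% of the gene in the 4 samples. The abundance of smad5 was mostly spread over 3 transcripts, each with 25.8% to 42.5%. For each of these (ENSDART00000054175, ENSDART00000183347 and ENSDART00000187280) both mutant samples lay above both wild-type samples. The share of all transcripts that lay so was not computed. A minor smad5 transcript, ENSDART00000191143, overlapped, at 3.67 and 2.07 TPM in the mutant samples and 2.29 and 2.56 TPM in the wild type. In acvr2ba, whose total overlapped between groups, the transcript ENSDART00000019975 held 36.7% and 28.4% of the gene in mutant and 14.8% and 19.1% in wild-type cells. The transcript ENSDART00000121592 held 24.5% and 26.7% in mutant and 42.7% and 35.8% in wild-type cells. For bmpr1ba, ENSDART00000158913 held 60.7% and 23.7% in mutant and 71.2% and 73.2% in wild-type cells, so both mutant samples lay below the wild type in that share and stood far apart from each other. Transcript values are estimates that divide shared reads, no error for them was used here, and they were not tested.

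Of the genes matched by name only, bmp2k was abundant and lower in mutant cells, without passing. Its values were 26.9 and 17.6 TPM in the mutant samples and 55.5 and 37.3 TPM in the wild type (log2FC -1.03 ± 0.27, adjusted p = 0.0716). Both of its gene IDs were lower in both mutant samples. It passed without wild-type replicate 2 (log2FC -1.31, adjusted p = 0.0267) and with the replicate block (adjusted p = 0.0326). Without mutant replicate 2 the log2 fold change was -0.74 (adjusted p = 0.407), and without wild-type replicate 1 it was -0.75 (adjusted p = 0.262). The protease gene bmp1a overlapped, at 0.903 and 2.71 TPM in the mutant samples and 3.18 and 1.60 TPM in the wild type, and bmp1b did not exceed 0.761 TPM.

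**Figure D4:**
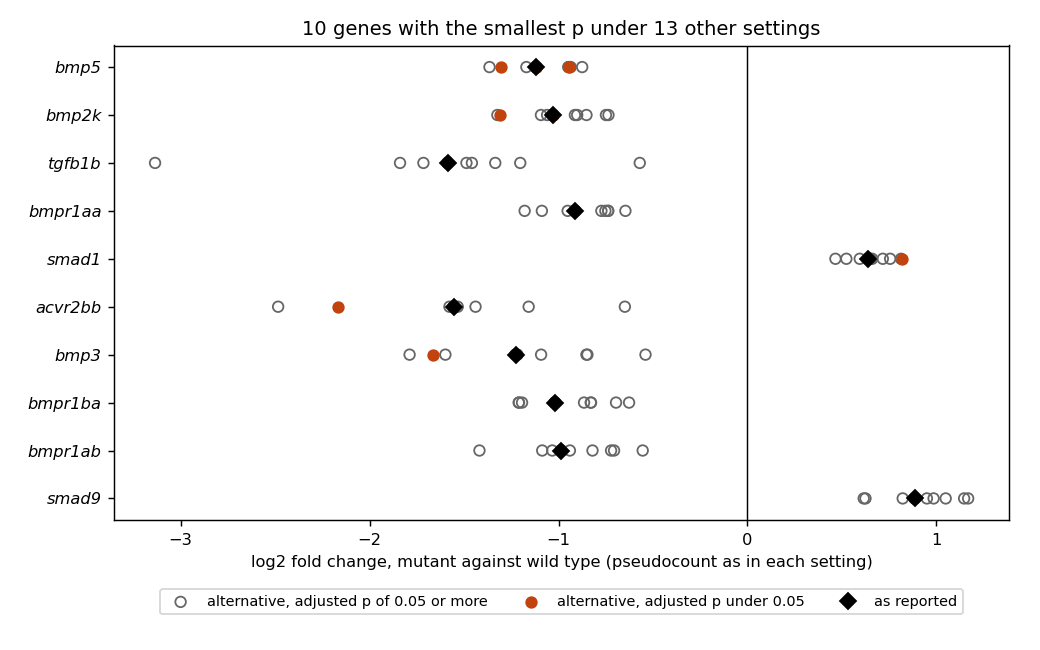
Log2 fold changes of the 10 genes with the smallest p, as reported (diamonds) and under up to 13 other settings each (circles; filled where the adjusted p was under 0.05). All points of smad1 and smad9 lie above 0 and all points of the other 8 genes below it; bmp5 was past the threshold under 5 settings.

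Further genes of the pathways, in 5 lists of modulators, other ligands and co-receptors, intracellular regulators, Bmp targets and Tgf-beta targets, included some that passed. Of 102 such genes tested, 3 rose and 12 fell, against 1.13% and 2.95% of all tested genes; the lists were written with earlier results of these data known, and nothing is read from that difference. Among modulators 1 of 15 fell, fstl1a, a follistatin-like gene, from wild-type values of 20.5 and 19.8 TPM to mutant values of 7.39 and 6.56 TPM (log2FC -1.41 ± 0.27, adjusted p = 0.0224). The most abundant modulators, tmeff1b and cthrc1a, did not pass. Among other ligands and co-receptors, 1 of 11, bambia, rose and 1 fell, and the most abundant, rgmd, did not pass. The Bmp co-receptor gene hjv (hemojuvelin), known for its expression in skeletal muscle, fell from 10.1 and 16.02 TPM to 0.841 TPM in mutant replicate 1 and was listed at 0 in mutant replicate 2 (adjusted p = 0.00381). The 9 skeletal muscle markers lay the same way. Their sums were 222 and 90.7 TPM in the mutant samples and 645 and 2044 TPM in the wild type. Of these markers 3 fell, where 2.95% of all tested genes did, and none was listed at 0 in any sample. Highest were actc1b and acta1b, and the part of muscle cells in the hjv value was not tested.

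Bmp targets went both ways, 3 rising and 4 falling of 27 tested, against 1.13% and 2.95% of all tested genes. Their median log2 fold change was -0.13. The inhibitor of differentiation gene id3 rose from wild-type values of 147 and 140 TPM to mutant values of 268 and 229 TPM (log2FC 0.79 ± 0.13, adjusted p = 0.0119). The pseudoreceptor gene bambia, whose product dampens Bmp and Tgf-beta signalling, rose from wild-type values of 16.9 and 22.0 TPM to mutant values of 34.8 and 51.8 TPM (adjusted p = 0.0461), and the homeobox gene msx3 rose from wild-type values of 77.9 and 67.4 TPM to mutant values of 152 and 108 TPM (adjusted p = 0.0415). The arch homeobox genes dlx3b and dlx4b fell by 2.12 and 2.59 on the log2 scale, and the T-box genes tbx2a and tbx2b fell by 1.77 and 1.08. The most abundant targets, id1 and id2a, did not pass: id1 stood at 664 and 599 TPM in the mutant samples and 489 and 637 TPM in the wild type. Nor did smad6a, smad6b or smad7, with log2 fold changes of -0.22, -0.20 and 0.34.

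Tgf-beta targets included 6 falls and 0 rises among 20 tested, against 2.95% and 1.13% of all tested genes, with a median log2 fold change of -0.32. Again nothing is read from that difference. Falls were those of the matrix genes col1a1b, col1a2 and fn1b, the matricellular gene ccn2a, the feedback regulator gene skila and the crest transcription factor gene snai2. The gene snai2 was also among the neural crest markers that fell. The gene skila, also the 1 fall among 37 intracellular regulators, fell from wild-type values of 15.8 and 15.2 TPM to mutant values of 5.69 and 3.06 TPM (log2FC -1.66 ± 0.34, adjusted p = 0.0271). For ccn2a the fall was from wild-type values of 19.7 and 21.1 TPM to mutant values of 6.92 and 8.21 TPM (log2FC -1.33 ± 0.27, adjusted p = 0.0288). The most abundant Tgf-beta targets, junbb and junba, and the most abundant regulators, fkbp1aa and tgif1, did not pass. Without mutant replicate 2, 13 of the 15 calls in these lists were lost, those of all but dlx3b and hjv (adjusted p = 0.0516 to 0.359). Without mutant replicate 1, 9 were lost, those of bambia, ccn2a, dlx4b, fn1b, fstl1a, id3, msx3, tbx2a and tbx2b (0.0696 to 0.216). Without wild-type replicate 1 the calls of bambia and fn1b were lost, and without wild-type replicate 2 those of ccn2a and msx3.

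**Figure D5:**
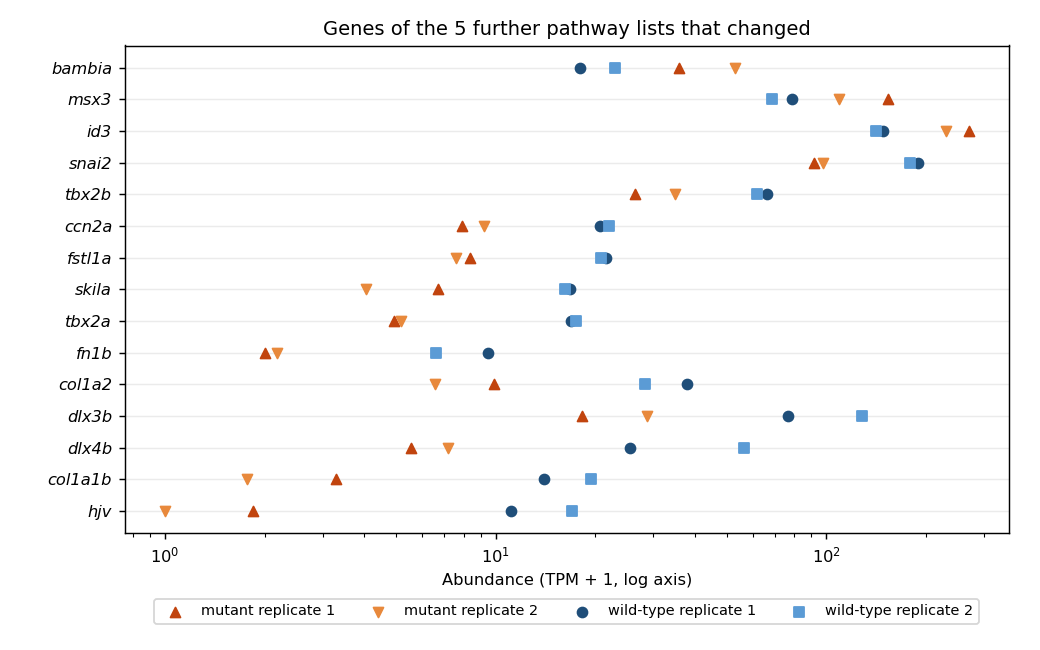
Abundance (TPM + 1, log axis) in each sample of the 15 genes in the 5 further pathway lists that passed the test, ordered by fold change. Mutant samples (triangles) lie to the right of the wild-type samples for bambia, msx3 and id3 and to the left for the other 12.

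The remaining lists of tissues that the sort could hold had 0 calls among them. Of the 9 epidermis and periderm genes tested, 0 passed (limma; 1 had an unadjusted p under 0.05), although their median log2 fold change was -1.26; krt4 and krt8 were the most abundant. The 5 otic vesicle and 5 notochord and floor plate genes tested had medians of 0.18 and 0.64 and 0 calls, with 0 at an unadjusted p under 0.05, and eya1, otx1, col2a1a and tbxta were their most abundant genes. The 5 erythroid genes had 0 calls and 3 at an unadjusted p under 0.05, all lower in mutant cells, with a median of -0.70. They were led by hbbe1.1 and hbbe3. Of all tested genes, 14.3% were lower and 6.05% higher in mutant cells at an unadjusted p under 0.05 (limma). Nothing is read from the counts of these lists. Summed otic abundance was 43.2 and 32.9 TPM in the mutant samples and 48.6 and 36.1 TPM in the wild type. Within it, eya1 stood at 27.2 and 21.9 TPM in the mutant samples and 38.0 and 28.2 TPM in the wild type. Its log2 fold change was -0.41, and those of pax2a, otomp, cldna and otx1 were 0.51, 0.86, 0.18 and 0.16. Notochord genes summed to 17.4 and 57.1 TPM in the mutant samples and 22.7 and 7.42 TPM in the wild type, and erythroid genes to 280 and 463 TPM in the mutant samples and 659 and 447 TPM in the wild type. The part of these cells in the ligand, receptor and Smad values was not tested.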

How the data were processed

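The authors deposited TPM per Ensembl transcript for 4 samples; per the submitters' processing notes the tool was kallisto and the build GRCz11, and versions and annotation release are not given in the sources used here. Of 65905 transcripts, 57775 had values, each column summed to 1000000, and each of the columns with values had a sample (0 did not). Abundance was summed per gene name (gene ID where blank), which joined 2 or more gene IDs for 9 of the 68 members. Genes averaging at least 1 TPM, 14217 in all, were analysed as log2(TPM + 1) with limma 3.58.1 in R 4.3.3 (eBayes with trend and robust, statmod 1.5.0), mutant against wild type, two-sided, with Benjamini-Hochberg adjustment over all tested genes and a threshold of 0.05. On that scale (log2FC in the text) changes of low genes come out too small. Errors are limma's standard errors. The labels call the samples biological replicates. Depth is unknown, so no counting interval was given.

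Members, roles and lists were chosen with earlier results of these data known, and no set test was made. Members named with values in each sample were the 4 most abundant of each role and the 10 with the smallest p. For tgfb5, tgfbr3 and bmp1b among these only an upper bound is given. For further lists, genes that passed and the 2 most abundant were named, many of them without values. Other genes, the within-sample shares and the transcripts were picked with their values in view. The fit was also run on simulated data with known changes. Their variances were drawn from the same fit, so that run cannot show whether calls hold in these data. Alternatives were other pseudocounts (0.1 and 5 TPM), filters (none, 5 TPM), 2 scalings, a replicate block, plain moderation, summing per gene ID and leaving out each sample. ACVR1C, spelled in capitals, was outside the name rule and was not used here.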

Additional observations from a re-analysis of the deposited data

How the results depend on the processing

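Of the 45 tested members, 29 kept the sign of their fold change under all alternatives that could test them. The genes bmp5, bmp2k, bmp3 and smad1 were past the threshold under at least 1 alternative that kept all 4 samples. The share of all genes past it under at least 1 was not counted, so nothing is read from this. Leaving out 1 sample moved the fold change of 32 of the 45 by over 1.5 times or changed its sign. The number of members called, 0 as reported, was 1 with a mean of 5 TPM or more, 2 with median-ratio scaling, 2 per gene ID, 2 with the replicate block, and 0 to 3 when 1 sample was left out (3 without wild-type replicate 2 and 1 without mutant replicate 2). Of all genes, 580 were called as reported (161 higher, 419 lower), 4 with no filter, 0 with limma without trend and robust (2531 at an unadjusted p under 0.05), and 110 to 720 when 1 sample was left out, where a lone sample is assumed to vary like the other group; the cause was not tested. Calls split into 364 higher and 405 lower with median-ratio scaling and 235 and 254 with quantile normalization. With a mean of 5 TPM or more, 23 members were tested and 5.29% of all tested genes were called. With median-ratio scaling 45 members were tested (5.44% of all tested genes called), per gene ID 43 (5.5%) and with the replicate block 45 (3.97%). Nothing is read from the member counts under these settings or with 1 sample left out. All 15 calls in the further pathway lists kept their direction under every alternative and were lost with no filter (adjusted p = 0.0926 to 0.208) and with limma without trend and robust (0.0733 to 0.223). With other pseudocounts bambia was lost (0.0513), with median-ratio scaling dlx3b (0.0579) and with quantile normalization ccn2a (0.0536). Replicate numbers are shared between groups only as numbers: the correlation of same-numbered deviations across genes was -0.01, and the replicate block gave 565 calls. With 2 samples per group and unknown depth, a member that did not pass is not shown to be equal between groups.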
